A study of Mus musculus with 6 samples.

Results

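The genes described here encode 9 chemokine receptors, Ccr1, Ccr2, Ccr3, Ccr6, Ccr7, Ccrl2, Cxcr2, Cxcr4 and Cx3cr1, taken by name from the 36706 genes of each deposited table. The cells were wild-type mouse dendritic cells derived from bone marrow, whose mRNA was sequenced after culture with 20 ng/mL GM-CSF and fresh medium on day 3 and day 5. In 3 libraries, named IFN-γ+4-OI, the cells had been given interferon gamma (IFN-γ) and 4-octyl itaconate (4-OI), a form of the macrophage metabolite itaconate that enters cells and is known to activate the transcription factor NRF2. In the 3 libraries of the other group, named IFN-γ, the cells had been given IFN-γ without 4-OI. Both groups therefore carry IFN-γ, and no library here comes from cells without it. The labels state neither the doses and times of IFN-γ and 4-OI nor the strain, age or number of mice. The libraries' titles use a name for macrophages (BMDMs) where the cell type label has dendritic cells. The cultures held transcripts of genes listed as markers of either kind of cell, as described further on.

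Chemokines are small secreted proteins that guide leukocytes, and their receptors are membrane proteins that pass the signal to G proteins of the Gi class. The kinds of receptor a myeloid cell carries change as it matures: CCR2 and CX3CR1 are known from monocytes, CXCR2 from neutrophils, CCR1 from inflammatory myeloid cells, and CCR7 from mature dendritic cells, which it takes to lymph nodes. CCRL2 is an atypical member of the family that binds chemerin without signalling through G proteins.

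All 9 genes passed the filter on low counts. Of them, 3 fell and 2 rose with 4-OI at a Benjamini-Hochberg adjusted p under 0.05 in edgeR's quasi-likelihood test over 14011 genes. Ccr2, Cxcr2 and Cx3cr1 fell, and each was at least 2-fold lower. Ccrl2 and Ccr1 rose by less than 2-fold, and Ccr7, Cxcr4, Ccr6 and Ccr3 did not pass. Over all genes tested, 25.4% were called lower and 22.7% higher, 48.1% in all, with 11.1% lower and 6.38% higher by at least 2-fold. The median log2 fold change was -0.05 over the 9 genes and -0.008 over all genes tested. Total counts were 19656368 to 29244717 per library, so 3 counts were worth 0.103 to 0.153 CPM before the scaling named next. Levels compared between the groups are CPM, which are counts relative to the library's total, here scaled with TMM factors; levels compared between genes are TPM, which are also per length. Since no label says that replicates are separate cultures or animals, the p-values rest on a spread among libraries that may be technical only.

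**Figure D1:**
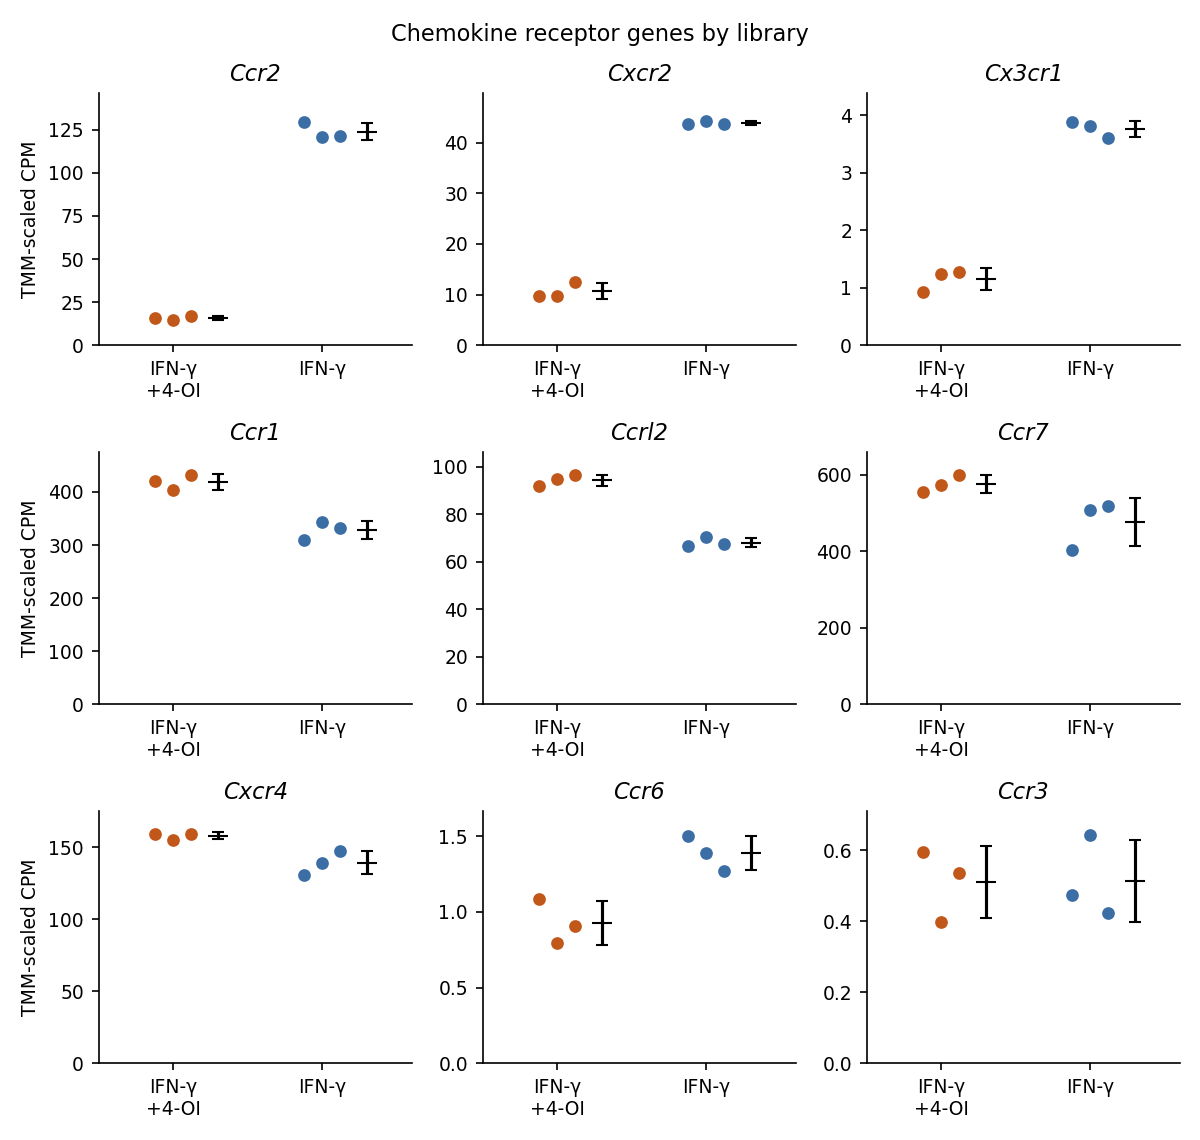
TMM-scaled CPM of the 9 receptor genes in each library, on linear axes from 0; points are libraries (IFN-γ+4-OI left, IFN-γ right) and bars give the mean ± SD of 3. The groups lie far apart for Ccr2, Cxcr2 and Cx3cr1, close together but apart for Ccrl2, Ccr1, Ccr7, Cxcr4 and Ccr6, and overlap for Ccr3.

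Ccr2 encodes the receptor for CCL2 that lets monocytes leave the bone marrow. It lies on chromosome 9 at 123901954 to 123913594 on the plus strand, as the deposited tables place it. Ccr2 stood at 15.8, 14.4 and 16.7 CPM in the IFN-γ+4-OI libraries, against 129.5, 121 and 121 CPM in the IFN-γ libraries. Every library with 4-OI was far below every library without it. The group means were 15.6 ± 1.15 CPM with 4-OI and 124 ± 4.95 CPM with IFN-γ alone (SD, n = 3 each), a log2 fold change of -2.98 ± 0.09 (SE; edgeR adjusted p = 1.7e-06). The fall was 7.92-fold, and 82 of the 14011 genes tested fell further. In bulk RNA, fewer cells that carry a transcript and less of it per cell cannot be told apart, which holds for every gene described here.

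Cxcr2 encodes the receptor by which neutrophils follow CXCL1, CXCL2 and related chemokines. It lies on chromosome 1 at 74193153 to 74200405 on the plus strand. Its level was 9.77, 9.70 and 12.5 CPM in the IFN-γ+4-OI libraries, against 43.7, 44.3 and 43.6 CPM in the IFN-γ libraries. The groups did not overlap, and IFN-γ+4-OI replicate 3 was the highest of its group. The log2 fold change was -2.04 ± 0.12 (SE; edgeR adjusted p = 8.11e-06), a 4.11-fold fall, and 380 of the genes tested fell further. The group means were 10.7 ± 1.61 CPM with 4-OI and 43.9 ± 0.355 CPM without it (SD, n = 3 each).

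Cx3cr1 encodes the receptor for fractalkine, the membrane-bound chemokine CX3CL1, on monocytes and many tissue macrophages. It lies on chromosome 9 at 119877749 to 119897362 on the minus strand. It was scarce in both groups, with 17, 34 and 31 counts in the IFN-γ+4-OI libraries against 98, 112 and 85 counts in the IFN-γ libraries. In CPM these were 0.922, 1.23 and 1.28 with 4-OI and 3.88, 3.80 and 3.61 without it, again with no overlap. The log2 fold change was -1.70 ± 0.17 (SE; edgeR adjusted p = 1.36e-04), a 3.25-fold fall. The gene shares 2.45% of its exon bases in the tables with Gm33858 on the opposite strand.

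These 3 falls kept their direction and their call in each of the 15 other fits that were run, with log2 fold changes of -3.25 to -2.92 for Ccr2, -2.30 to -1.97 for Cxcr2 and -1.96 to -1.58 for Cx3cr1. The 3 genes fell by unequal amounts. Within a library, where scaling plays no part, the ratio of Cxcr2 TPM to Ccr2 TPM was 0.933, 1.02 and 1.14 in the IFN-γ+4-OI libraries, against 0.511, 0.555 and 0.545 in the IFN-γ libraries. The ratio of Cx3cr1 TPM to Ccr2 TPM was 0.0733, 0.108 and 0.0964 with 4-OI, against 0.0377, 0.0397 and 0.0375 without it. Both ratios were higher in every library with 4-OI than in any without it.

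Markers of monocytes and neutrophils, cells that carry these receptors, were counted beside them and did not all move one way. Of 9 monocyte markers, 6 fell and none rose, and their summed level was 5751 to 6823 CPM with 4-OI and 6780 to 7629 CPM without it. The list holds Cd177, which neutrophils express too and which is named here outside the rule, after values were seen. Chil3, the marker with the most CPM, averaged 5239 ± 514 CPM with 4-OI and 5085 ± 575 CPM without it (edgeR adjusted p = 0.81), while Ly6c2, a surface protein of classical monocytes, was 2.57-fold lower (edgeR adjusted p = 6.23e-04). Of 12 neutrophil markers, 7 fell and 2 rose, and their summed level was 3977 to 4658 CPM with 4-OI and 3611 to 4330 CPM without it. Mmp8, the one with the most CPM, averaged 1966 ± 48.4 CPM with 4-OI and 1952 ± 16.1 CPM without it (edgeR adjusted p = 0.935). S100a8 was 1.93-fold higher, and Ly6g, the other that rose, 2.56-fold higher (edgeR adjusted p = 0.0297 and 0.00241). The 7 falls were 1.21-fold (Ltf) to 9.13-fold (Mpo; edgeR adjusted p = 1.34e-05). For the 12 markers the log2 fold changes had their median at -0.41, against -0.008 for all genes tested. Over all genes tested, 25.4% fell and 22.7% rose. With total counts only, 7 monocyte markers and 10 neutrophil markers fell, and 1 neutrophil marker rose, where 38.9% of all genes fell and 12.3% rose. No marker of either list had 0 counts in all libraries. The part of these cells in the falls of Ccr2, Cxcr2 and Cx3cr1 was not tested.

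The 300 bases around the annotated starts of the falling genes, 250 before and 50 after, are shown because the genes moved together. They are from RefSeq on GRCm38.p6, on which the coordinates differ from those of the deposited tables, and are written 5′ to 3′ on the gene's strand. Capitals would mark a match to one of the motifs searched, and these 3 windows hold none.
Ccr2 (chr9:124101933-124102232, plus strand): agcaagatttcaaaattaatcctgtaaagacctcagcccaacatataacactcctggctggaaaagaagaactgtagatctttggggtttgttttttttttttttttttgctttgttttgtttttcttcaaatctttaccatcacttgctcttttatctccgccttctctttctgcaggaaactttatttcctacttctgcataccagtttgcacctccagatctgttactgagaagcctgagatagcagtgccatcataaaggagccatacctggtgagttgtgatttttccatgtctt
Cxcr2 (chr1:74153744-74154043, plus strand): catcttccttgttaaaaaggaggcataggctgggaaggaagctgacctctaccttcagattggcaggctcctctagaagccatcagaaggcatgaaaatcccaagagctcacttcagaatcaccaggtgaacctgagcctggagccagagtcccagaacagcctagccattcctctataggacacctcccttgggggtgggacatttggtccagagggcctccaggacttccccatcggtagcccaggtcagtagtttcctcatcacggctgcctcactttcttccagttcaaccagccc
Cx3cr1 (chr9:120068247-120068546, minus strand): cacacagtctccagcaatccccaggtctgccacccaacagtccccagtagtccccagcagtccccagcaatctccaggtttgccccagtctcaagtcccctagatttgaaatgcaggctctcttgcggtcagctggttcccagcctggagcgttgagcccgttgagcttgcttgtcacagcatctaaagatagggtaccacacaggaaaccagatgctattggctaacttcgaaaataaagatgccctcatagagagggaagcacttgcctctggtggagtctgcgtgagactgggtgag

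The motifs were searched on both strands, and shares are of all 32851 RefSeq windows of that length. TTCNNNGAA, the site of STAT dimers, was found in 8.30%, and TGACNNNGC, the core of the antioxidant response element bound by NRF2 with small MAF proteins, in 12.4%. TGANTCA, the AP-1 site, was found in 7.81% and GAGGAAG, a PU.1 core, in 13.6%. An interferon-stimulated response element core was found in 3.44% and an NF-κB site in 1.63%. The antioxidant core shares its first letters with the AP-1 motif, so a single stretch can match both. Of the 9 genes, 8 had at least 1 window, 11 windows in all, and Ccr7 was not among them. A window without these letters says nothing about the factors, and a window with them is a match of letters.

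Ccrl2 encodes the atypical receptor that holds chemerin at the cell surface. It lies on chromosome 9 at 110883902 to 110886586 on the minus strand. Its level was 91.9, 94.7 and 96.4 CPM in the IFN-γ+4-OI libraries, against 66.6, 70.2 and 67.2 CPM in the IFN-γ libraries, with no overlap. The log2 fold change was 0.47 ± 0.07 (SE; edgeR adjusted p = 0.00125), a 1.39-fold rise.

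Ccr1 encodes a receptor for CCL3, CCL5 and, in mice, CCL6 and CCL9. It lies on chromosome 9 at 123762163 to 123768729 on the minus strand. Its level was 421, 403 and 432 CPM in the IFN-γ+4-OI libraries, against 309, 343 and 333 CPM in the IFN-γ libraries. The lowest library with 4-OI was above the highest without it. The log2 fold change was 0.35 ± 0.08 (SE; edgeR adjusted p = 0.00935), a 1.27-fold rise.

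Both rises depended on the scaling of the libraries. With total counts only, the median log2 fold change of all genes tested moved to -0.27, and the log2 fold changes were 0.21 for Ccrl2 and 0.09 for Ccr1 (edgeR adjusted p = 0.0578 and 0.340). Relative to that median the changes were 0.48 for Ccrl2 and 0.36 for Ccr1, close to those with TMM factors. By edgeR 0 of the 9 genes were then called higher, against 12.3% of all genes, with 1 at an unadjusted p under 0.05, and 4 were called lower, against 38.9% of all genes. DESeq2 called 2 of the 9 higher and 3 lower, against 18.1% and 19.8% of the genes it tested, and limma-voom called 2 higher and 4 lower, against 22.9% and 25.0%. Without IFN-γ replicate 1 and IFN-γ+4-OI replicate 3, which lay apart from their groups, edgeR called 4 higher and 3 lower, against 32.7% and 33.3% of all genes. In TPM the groups overlapped: Ccr1 stood at 277, 265 and 242 TPM in the IFN-γ+4-OI libraries and at 286, 257 and 258 TPM in the IFN-γ libraries. Ccrl2 stood at 76.0, 78.5 and 68.1 TPM in the IFN-γ+4-OI libraries and at 77.6, 66.2 and 65.7 TPM in the IFN-γ libraries. Of all genes tested, the TPM of the groups did not overlap with higher levels for 10.7% and with lower levels for 53.0%.

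The window of Ccrl2 is shown because it holds 1 match to the antioxidant core, in capitals, 42 bases before the annotated start and on the opposite strand. Ccr1, the other gene that rose, is shown beside it and holds no match. Ccrl2 has 3 annotated starts, and the other two windows hold none. The antioxidant core was found in 2 of the 11 windows of the 9 genes, the other being that of Ccr3, which did not pass the test. The window of Ccr3 also held an AP-1 and an NF-κB match, and 1 window of Ccr6 held STAT dimer and PU.1 matches.
Ccrl2 (chr9:111057469-111057768, minus strand): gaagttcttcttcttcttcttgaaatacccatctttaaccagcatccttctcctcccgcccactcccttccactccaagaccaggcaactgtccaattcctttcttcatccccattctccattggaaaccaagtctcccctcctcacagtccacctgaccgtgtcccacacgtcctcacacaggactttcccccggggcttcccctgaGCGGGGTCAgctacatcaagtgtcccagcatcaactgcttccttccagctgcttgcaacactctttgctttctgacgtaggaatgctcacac
Ccr1 (chr9:123968643-123968942, minus strand): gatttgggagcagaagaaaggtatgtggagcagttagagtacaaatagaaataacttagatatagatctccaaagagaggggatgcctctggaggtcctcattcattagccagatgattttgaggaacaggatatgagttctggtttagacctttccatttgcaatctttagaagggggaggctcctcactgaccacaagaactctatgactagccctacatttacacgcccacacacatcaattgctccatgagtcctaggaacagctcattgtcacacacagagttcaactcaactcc

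**Figure D2:**
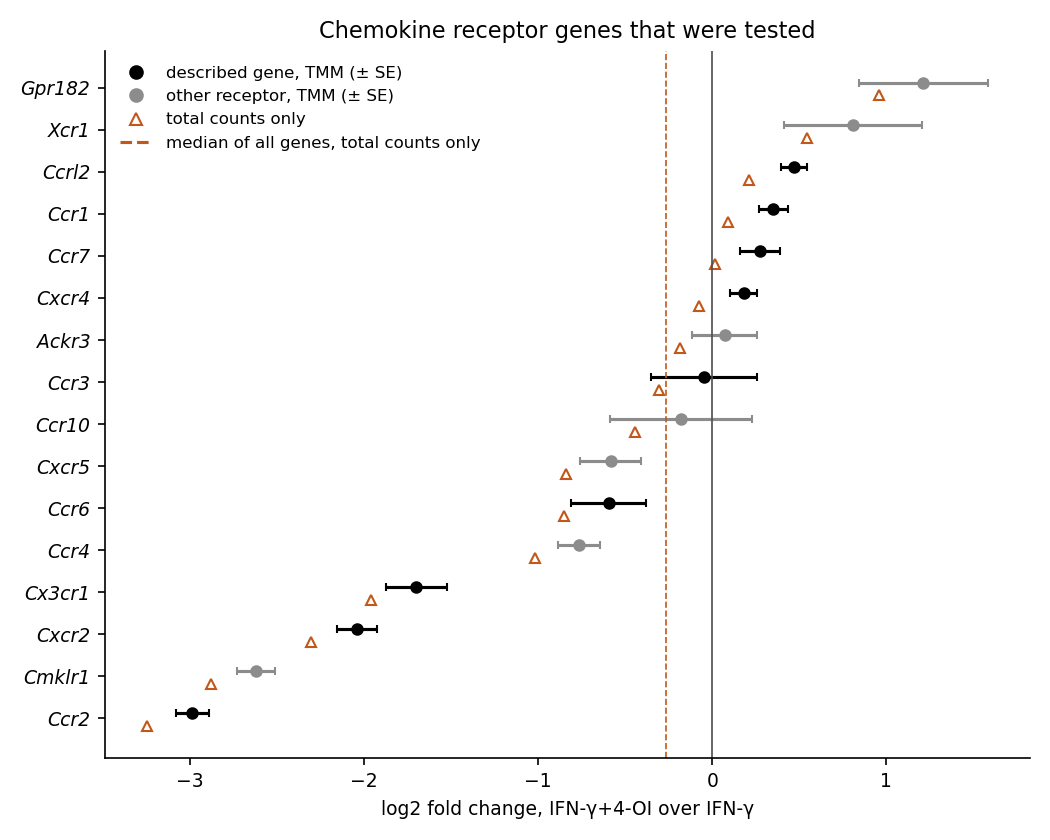
log2 fold change (IFN-γ+4-OI over IFN-γ) of the chemokine receptor genes tested, with TMM factors (circles, ± SE; black for the 9 described genes, grey for other receptors) and with total counts only (triangles); the dashed line is the median of all genes with total counts only. Ccr2, Cmklr1, Cxcr2 and Cx3cr1 lie far to the left under both scalings, and with total counts only Ccr1 and Ccr7 lie near 0 and Cxcr4 at -0.08.

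Ccr7 encodes the receptor for CCL19 and CCL21 that guides mature dendritic cells to lymph nodes, and it lies on chromosome 11 at 99035025 to 99045903 on the minus strand. It had the highest TPM of the 9 genes in every library. Its level was 555, 574 and 600.1 CPM in the IFN-γ+4-OI libraries, against 404, 509 and 519 CPM in the IFN-γ libraries, in which replicate 1 was the lowest. The groups did not overlap, but the log2 fold change of 0.27 ± 0.11 (SE) did not pass (edgeR adjusted p = 0.083). In TPM the order of the means was the other way, 515 ± 30.3 with 4-OI and 553 ± 21.5 without it (SD, n = 3 each), and the groups overlapped. Beside it, 11 of 12 markers of mature dendritic cells fell and none rose, against 25.4% and 22.7% of all genes. The markers summed to 2271 to 2353 CPM with 4-OI and 3822 to 4298 CPM without it. Ccl22, a chemokine, and Tmem123, a membrane protein, had the most CPM among them and were 2.04-fold and 1.37-fold lower (edgeR adjusted p = 1.23e-04 and 0.00302).

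Cxcr4 encodes the receptor for CXCL12 that retains leukocytes in the bone marrow, and it lies on chromosome 1 at 128515936 to 128520036 on the minus strand. Its level was 159, 155 and 159 CPM in the IFN-γ+4-OI libraries, against 131, 139 and 147 CPM in the IFN-γ libraries. The log2 fold change of 0.18 ± 0.08 (SE) did not pass (edgeR adjusted p = 0.0868), and it was -0.08 with total counts only (edgeR adjusted p = 0.461).

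Ccr6, the receptor for CCL20, and Ccr3, the eotaxin receptor of eosinophils, were near the limit of detection. Ccr6, on chromosome 17 at 8454875 to 8477353 on the plus strand, had 20, 22 and 22 counts in the IFN-γ+4-OI libraries, against 38, 41 and 30 counts in the IFN-γ libraries. Its CPM did not overlap, and the log2 fold change of -0.59 ± 0.22 (SE) missed the threshold (edgeR adjusted p = 0.0519). Ccr6 passed as lower in 4 of the 15 other fits, and it shares 5.82% of its exon bases with Gm33799. Ccr3, on chromosome 9 at 123817799 to 123831729 on the plus strand, had 11, 11 and 13 counts with 4-OI against 12, 19 and 10 without it. These counts overlapped, and at this depth no difference could be seen (log2 fold change -0.05 ± 0.30, SE; edgeR adjusted p = 0.907). Eosinophil markers were detected beside it. Of 6 tested, 4 fell and 2 rose (1 with total counts only), against 25.4% and 22.7% of all genes. The listed markers summed to 81.0 to 90.2 CPM with 4-OI and 179 to 241 CPM without it. Prg2 and Ear6, which encode granule proteins, were 2.92-fold and 3.42-fold lower (edgeR adjusted p = 9.72e-05 and 1.9e-05).

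Counted by CPM that did not overlap between the groups, 4 of the 9 genes were higher with 4-OI (Ccrl2, Ccr1, Ccr7 and Cxcr4) and 4 were lower (Ccr2, Cxcr2, Cx3cr1 and Ccr6). Over all genes tested, 28.9% were higher and 30.6% lower by the same rule.

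Per length, a few receptors made up nearly all of the receptor transcripts. The 9 genes summed to 991, 999 and 893 TPM in the IFN-γ+4-OI libraries, against 1131, 1060.3 and 1103 TPM in the IFN-γ libraries. In CPM the order was the other way, 1253 to 1319 with 4-OI and 1090 to 1236 without it. Of all genes tested, 53.0% had lower TPM with 4-OI, without overlap of the groups. Of the summed TPM, Ccr7 held 52.7% to 54.3% with 4-OI and 47.3% to 52.3% without it. Ccr1 held 26.6% to 27.9% with 4-OI and 23.4% to 25.3% without it. Cxcr4 held 9.84% to 10.4% with 4-OI and 9.69% to 10.5% without it. Ccr2 held 0.569% to 0.629% with 4-OI, against 5.11% to 6.35% without it, and Cxcr2 held 0.580% to 0.713% with 4-OI, against 2.78% to 3.24% without it. In the IFN-γ group the order by mean TPM was Ccr7, Ccr1, Cxcr4, Ccrl2, Ccr2, Cxcr2, Cx3cr1, Ccr6 and Ccr3, and among neighbours in it the libraries of Ccrl2 and Ccr2 overlapped. In the IFN-γ+4-OI group Cxcr2 and Ccr2 changed places, and their libraries overlapped, as did those of Cx3cr1 and Ccr6. Within a library, Ccr1 TPM was 44.4, 46.7 and 43.2 times Ccr2 TPM with 4-OI, against 3.99, 4.75 and 4.58 times without it.

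**Figure D3:**
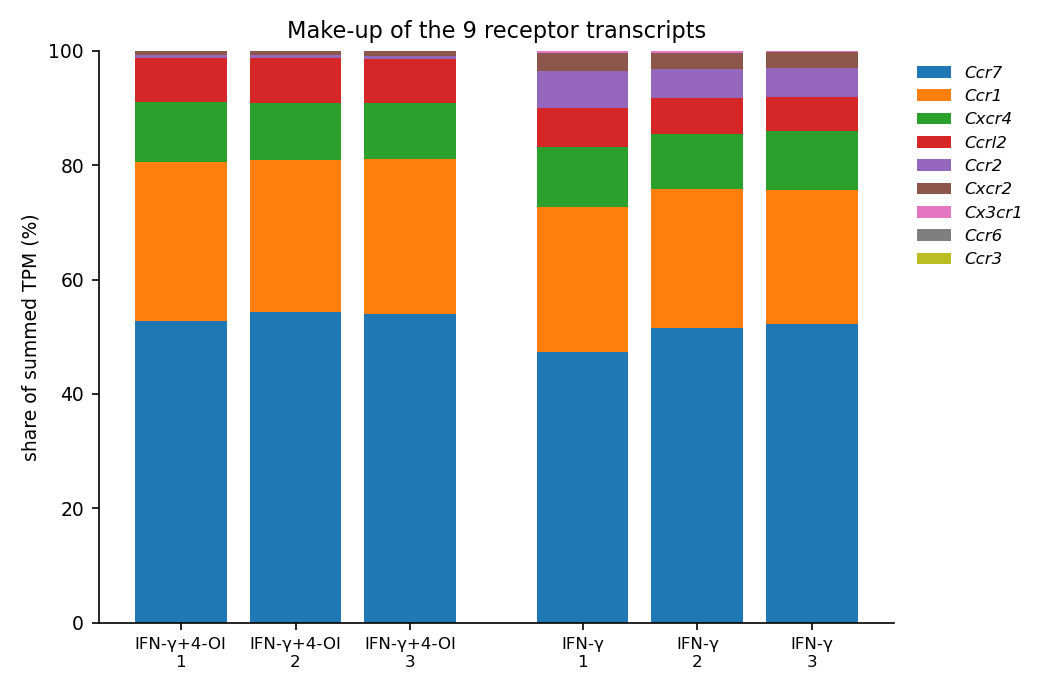
Share of each receptor gene (%) in the summed TPM of the 9 genes, 1 bar per library, IFN-γ+4-OI on the left and IFN-γ on the right. Ccr7 and Ccr1 fill most of every bar, and the bands of Ccr2 and Cxcr2 are thin in the IFN-γ+4-OI bars.

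Ccr1, Ccr3 and Ccr2 are neighbours in the receptor cluster of chromosome 9, where the end of Ccr1 lies 133225 bases before the start of Ccr2 in the deposited tables. Along the cluster, Ccr1 rose, Ccr3 did not pass, and Ccr2 fell. Xcr1, the receptor of cross-presenting dendritic cells on the other side of Ccr1, was at 0.709 ± 0.277 CPM with 4-OI and 0.405 ± 0.130 CPM without it (SD, n = 3 each; edgeR adjusted p = 0.129), and Ccr1l1 had 1 count with 4-OI and 16 without it and was not tested. Fyco1, a gene of vesicle transport next to Xcr1, did not pass at -0.41 on the log2 scale (edgeR adjusted p = 0.118). Beside Ccrl2, which lies 12875577 bases from Ccr1 on the same chromosome, Lrrfip2 was higher, at 0.66 on the log2 scale (edgeR adjusted p = 6.68e-04), and Ltf, lactoferrin, lower, at -0.28 (edgeR adjusted p = 0.0381). Csrnp1, near Cx3cr1, was lower, at -0.71 on the log2 scale (edgeR adjusted p = 1.53e-04). The receptors are alike in sequence, but of all stretches of 31 bases in their GENCODE M21 transcripts, Ccr1 and Ccr3 shared 17 with each other, which is 0.642% or less of those in either gene, and no other pair of the 9 shared any. Ccr2 shared 3.41% and Cxcr2 7.70% with any other gene, the highest shares of the 9.

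Of 16 other chemokine receptor genes listed, 7 could be tested, and the 9 others had low counts or none. Of the 7, 3 fell and 1 rose, against 25.4% and 22.7% of all genes. Cmklr1, a signalling receptor for chemerin, was at 5.59, 6.08 and 5.68 CPM in the IFN-γ+4-OI libraries, against 39.9, 33.0 and 34.1 CPM in the IFN-γ libraries. Its fall was 6.15-fold (log2 fold change -2.62 ± 0.11, SE; edgeR adjusted p = 2.48e-06). With TMM factors Ccrl2 and Cmklr1 moved in opposite directions, though the rise of Ccrl2 was not called with total counts only. Within a library, the ratio of Ccrl2 TPM to Cmklr1 TPM was 27.5, 26.1 and 28.4 with 4-OI, against 2.80, 3.56 and 3.30 without it. Ccr4, the receptor for CCL17 and CCL22, averaged 18.8 ± 2.23 CPM with 4-OI and 31.9 ± 3.42 CPM without it (edgeR adjusted p = 0.0013). Cxcr5, the receptor for CXCL13, averaged 2.03 ± 0.314 CPM with 4-OI and 3.02 ± 0.25 CPM without it (edgeR adjusted p = 0.0242), and it lost its call with DESeq2 and without replicate 2 or 3 of either group (edgeR adjusted p = 0.069 to 0.0974). Gpr182, an atypical receptor, rose on 38 counts with 4-OI against 18 without it (edgeR adjusted p = 0.0274), but DESeq2 gave an adjusted p of 0.125, edgeR with total counts only one of 0.0649, and edgeR without IFN-γ replicate 3 one of 0.0816. It was not kept by the filter without IFN-γ+4-OI replicate 2 or 3. Ackr3, a scavenger of CXCL12, and Ccr10 did not pass, at 0.07 and -0.18 on the log2 scale (edgeR adjusted p = 0.775 and 0.743).

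The receptors' ligands were also measured in these libraries. Of 23 listed ligand genes, 14 were tested, of which 7 rose and 6 fell, with a median log2 fold change of 0.36. Over all genes tested, 22.7% rose and 25.4% fell. With total counts only 6 ligand genes rose and 6 fell, against 12.3% and 38.9% of all genes. Cxcl1, Cxcl2, Cxcl3, Cxcl5 and Ppbp, which encode ligands of CXCR2, all rose while Cxcr2 fell. Their summed level was 14658, 14479.8 and 18617 CPM in the IFN-γ+4-OI libraries, against 805, 978 and 1134 CPM in the IFN-γ libraries. Cxcl1, Cxcl2 and Cxcl3 had log2 fold changes of 3.31 ± 0.13, 3.46 ± 0.16 and 4.34 ± 0.20 (SE; edgeR adjusted p = 2.17e-06, 3.2e-06 and 3.2e-06), and Cxcl5 and Ppbp had 6.44 ± 0.43 and 6.11 ± 0.44 (edgeR adjusted p = 1.64e-05 and 2.37e-05). Of the ligands of CCR1, Ccl3 rose, at 374, 380.1 and 558 CPM with 4-OI against 161, 248 and 235 CPM without it (edgeR adjusted p = 0.00455). Ccl5, Ccl6 and Ccl9 fell and were 2.10-fold, 1.61-fold and 1.56-fold lower (edgeR adjusted p = 0.00138, 0.00302 and 0.00235).

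Ccl2, the main ligand of CCR2, fell with its receptor, at 2.93, 6.04 and 7.33 CPM in the IFN-γ+4-OI libraries against 8.90, 13.3 and 11.6 CPM in the IFN-γ libraries (edgeR adjusted p = 0.0199). The call was lost without the filter, without either group's replicate 2, and without IFN-γ replicate 1 and IFN-γ+4-OI replicate 3 together (edgeR adjusted p = 0.0522 to 0.0547). Ccl7, which CCR2 also binds, had a log2 fold change of 0.18 ± 0.76 (SE; edgeR adjusted p = 0.861). Cx3cl1, the ligand of CX3CR1, was 1.96-fold lower (edgeR adjusted p = 0.0178), a call lost without IFN-γ+4-OI replicate 2 or 3. Mif, a cytokine that CXCR4 binds, was 1.45-fold higher (edgeR adjusted p = 0.0315), which was lost with total counts only (adjusted p = 0.134), and without IFN-γ+4-OI replicate 2, IFN-γ+4-OI replicate 3 or IFN-γ replicate 3. Ccl4 was 1.53-fold lower as well (edgeR adjusted p = 0.0123), a call lost without IFN-γ+4-OI replicate 2. The ligands of CCR7, Ccl19 and Ccl21a, and the eotaxin gene Ccl11 had 0 counts in every library, where 0 counts allow up to 0.103 to 0.153 CPM before TMM scaling. Ccl20, the ligand of CCR6, had 1 count with 4-OI and 2 without it, and Rarres2, which encodes chemerin, had 0 with 4-OI and 4 without it. Cxcl12, the other listed ligand of CXCR4, had 1, 5 and 1 counts in the IFN-γ+4-OI libraries. It had 32, 11 and 9 counts in the IFN-γ libraries and was not tested.

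**Figure D4:**
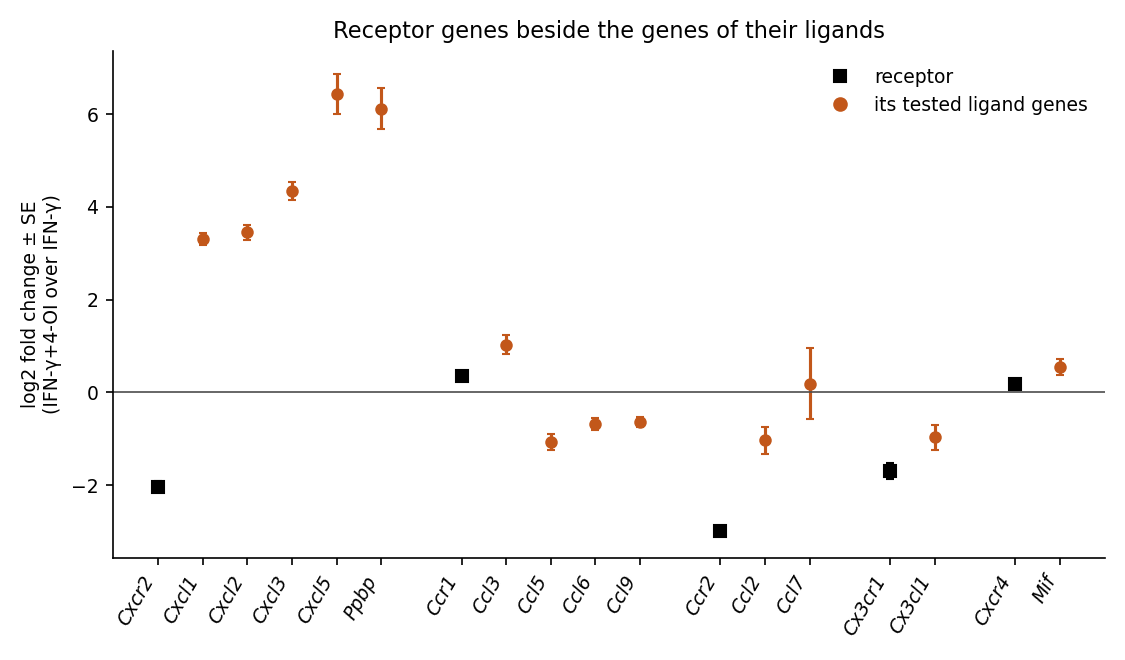
log2 fold change ± SE (IFN-γ+4-OI over IFN-γ) of receptor genes (squares) beside tested genes of some of their ligands (circles). Cxcr2 lies at -2.04 and the ligand genes shown beside it at 3.31 to 6.44. Ccr2 and Cx3cr1 lie below 0 with Ccl2 and Cx3cl1, while Ccl7, also beside Ccr2, lies at 0.18 ± 0.76.

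Of 34 genes whose products carry or end the receptors' signal, 18 fell, 2 rose and 14 did not pass, with a median log2 fold change of -0.38. Over all genes tested, 25.4% fell and 22.7% rose. Those with the smallest adjusted p among the falls were Fgr, a Src family kinase, Rgs14, a regulator of G protein signalling, and Tiam1, an exchange factor for Rac. They were 2.33-fold, 2.49-fold and 5.04-fold lower (edgeR adjusted p = 1.75e-05, 2.58e-05 and 6.86e-05). Tiam1 stood at 14.4, 13.3 and 12.03 CPM with 4-OI, against 90.1, 53.6 and 56.4 CPM without it. The rises were those of Rgs1, which shortens signals of Gi-coupled chemokine receptors, and Grk5, a kinase that marks active receptors for arrestin. Rgs1 averaged 467 ± 25.3 CPM with 4-OI and 169.6 ± 26.3 CPM without it, and Grk5 57.3 ± 2.58 CPM with 4-OI and 33.9 ± 1.77 CPM without it (edgeR adjusted p = 5.36e-05 and 1.94e-04). Both kept their calls with total counts only, where 25 of the 34 fell, against 38.9% of all genes.

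For each receptor gene that passed, the protein-coding gene with the most similar course over the 6 libraries was sought among 12327 tested, by Euclidean distance of log2 CPM centred on each gene's mean. Slfn4, of the Schlafen family, was nearest to Ccr2 at a distance of 0.203, and it averaged 7.11 CPM with 4-OI and 57.4 CPM without it. Nearest were Shroom3 to Cxcr2 at 0.157, Eme1 to Cx3cr1 at 0.116, Cept1 to Ccrl2 at 0.041 and Tpra1 to Ccr1 at 0.025. Within a distance of 0.5 lay 19 genes for Ccr2, 120 for Cxcr2 and 185 for Cx3cr1, but 3135 for Ccrl2 and 3822 for Ccr1.

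The cultures were checked against markers of the labelled cell type. Itgax, the gene of CD11c, averaged 214 ± 8.73 CPM with 4-OI and 514 ± 50.01 CPM without it, and Irf8, a transcription factor, averaged 259 ± 8.86 CPM with 4-OI and 304 ± 12.97 CPM without it. Of 11 tested markers of conventional dendritic cells, 10 fell and 1 rose, where 25.4% of all genes fell and 22.7% rose. The 1 that rose was Clec9a, 3.73-fold higher (edgeR adjusted p = 7.88e-06). Flt3 and Zbtb46, of the same list, averaged 10.0 and 11.4 CPM with 4-OI and 16.2 and 15.5 CPM without it. These 3 are named outside the rule, after values were seen. The macrophage markers Cd14 and Adgre1 were also detected, at 1447 ± 59.5 and 1334 ± 8.58 CPM with 4-OI and at 905 ± 125 and 875 ± 41.7 CPM without it, and of 11 macrophage markers 3 rose and 2 fell (2 and 3 with total counts only). Mast cell and basophil markers fell in 6 of 6 cases tested, Hdc 4.01-fold and Gata2 3.45-fold, with summed levels of 89.98 to 98.0 CPM with 4-OI and 302 to 345 CPM without it. Of 6 markers of B cells, 0 passed in edgeR, 0 in DESeq2, 0 in limma-voom and 0 at an unadjusted p under 0.05. With total counts only 4 of them fell, against 38.9% of all genes. Of 7 T and NK cell markers, 2 were tested, and both fell. The part of cell makeup in the receptors' levels was not tested.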

How the data were processed

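The protocols in the labels name a stranded mRNA kit. Reads were aligned with HISAT2 to mm10, per the submitters' processing notes; how reads were counted, with which strand setting and annotation, is not given in the sources used here. The authors deposited raw counts per gene, TPM and FPKM for each sample. Both TPM and FPKM equalled values recomputed from the deposited counts and gene lengths within a relative tolerance of 1e-06 in 100% of cases, and FPKM were not used further. None of the 9 receptor genes shared a start or end with RefSeq's GRCm38 table, so gene coordinates are as deposited and their build was not settled.

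Counts were tested with edgeR 4.0.16 in R 4.3.3 (filterByExpr with a minimum count of 10, TMM factors, robust quasi-likelihood test, SE from its F statistic, Benjamini-Hochberg adjustment over all genes, threshold 0.05). The procedure was also run on simulated counts. Far fewer genes changed in them than here, in random directions, so that run does not test the scaling. Alternatives used DESeq2 1.42.0 and limma 3.58.1, other scalings and filters, a replicate block, and left out libraries. The genes described and the lists were chosen with earlier results of these data known. By rule the text names all 9 genes, other receptors tested, the 3 ligand and signalling genes per direction with the smallest adjusted p, tested ligands of a receptor described, the 2 markers of a list with the most CPM, the nearest gene in course, and neighbours in the receptor clusters. Some genes that fall under the rules are left out. Replicates differed by more than sampling noise (lowest chi-square per gene 4.07).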

Additional observations from a re-analysis of the deposited data

How the results depend on the processing

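Each result was recomputed under 16 other settings (15 for Ccr3, which the 1 CPM minimum removed). The falls of Ccr2, Cxcr2 and Cx3cr1 kept direction and call in all 16, and Ccrl2 and Ccr1 in 15. With total counts only, Ccr1 and Ccrl2 had log2 fold changes of 0.091 and 0.213 and were no longer called, Cxcr4 reversed to -0.076, and Ccr6 passed at -0.85. In that fit 0 of the 9 genes and 0 of the other receptors were called higher, where 12.3% of all genes were called higher and 38.9% lower. Ccr6 also passed with upper quartile factors (-0.61 for its log2 fold change), with at least 1 CPM in 3 libraries (-0.60) and with limma-voom (-0.60). In a fit with a replicate block, Ccr7 passed at 0.28; the numbers were not taken to pair the samples, since correlations of same-numbered deviations were 0.27, -0.10 and 0.19 and 1 of 3 libraries with 4-OI correlated best with its own number. The block moved the count of changed genes to 7513, against 6736. Gpr182, the 1 other receptor called higher, was not called with DESeq2 (0), with the 1 CPM minimum (0) or at an adjusted p of 0.01 (0). At that threshold 3 ligands fell, against 6, and 4561 genes in all were called, against 6736.

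Without single libraries, the log2 fold change of Ccr3 lay between -0.154 and 0.168, reversing without IFN-γ+4-OI replicate 2 (0.123) and without IFN-γ replicate 2 (0.168). Ligands called lower ranged from 3 to 7 and other receptors called higher from 0 to 1. Over all genes, 20.0% to 28.2% were called lower in these fits and 17.4% to 26.4% higher. A fit without IFN-γ replicate 1 and IFN-γ+4-OI replicate 3 together was added after seeing the data. Each was the library of its own group that lay farthest out on the second principal component. In that fit Ccr7 and Cxcr4 passed at 0.14 and 0.13, so 4 of the 9 genes were called higher (32.7% of all genes). In it 4 of the 34 signalling genes rose and 24 fell, against 32.7% and 33.3% of all genes. Causes other than the scaling were not tested. Low counts limit Ccr3, Ccr6 and Cx3cr1, and among the other receptors tested Gpr182, Cxcr5, Ackr3, Ccr10 and Xcr1.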
